A study of Mus musculus with 6 samples.

Results

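The 9 genes described here belong to the tumour necrosis factor (TNF) superfamily, which comprises ligands and the receptors that bind them. They are the ligand genes Tnf, Tnfsf9, Tnfsf10, Tnfsf13b and Tnfsf14 and the receptor genes Tnfrsf1a, Tnfrsf1b, Tnfrsf10b and Fas, taken by name from the 35853 genes to which the deposited transcript tables were summed. All 9 were found, each under 1 gene identifier. The cells were Ly6G-positive blood neutrophils of wild-type BALB/C mice, taken 4 weeks after orthotopic implantation of 4T1, a mammary carcinoma line. They were sorted by surface Ly6C, giving 3 Ly6C-high and 3 Ly6C-low RNA-seq libraries. Both groups share the tumour, and no tumour-free blood is compared. Neither the age of the mice nor the number of mice behind a group is given, and p-values therefore measure the spread between libraries, which may be technical.

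TNF superfamily ligands are trimeric proteins, mostly made as membrane proteins that can be shed, and their receptors signal through recruited adaptor proteins. Receptors with a cytoplasmic death domain, such as Fas and TNF receptor 1, can start caspase activation, while receptors that recruit TRAF proteins mainly switch on NF-kB and survival genes. In neutrophils TNF is a classical priming and survival-modifying cytokine, and Fas and TRAIL receptors are linked to the ending of the neutrophil's short life.

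Transcripts of the 2 TNF receptors, of Fas and of the ligand Tnfsf14 were abundant in both groups, while those of Tnfsf9 and Tnfsf10 were close to absent. None of the 9 genes passed the test between the groups. Tnf was 1.41-fold and Tnfsf13b 1.34-fold higher in the Ly6C-high cells, and Tnfsf14 was higher by 1.13-fold in Ly6C-low cells, each with an unadjusted p under 0.05 and an adjusted p above it. For the receptors Tnfrsf1a, Tnfrsf1b, Tnfrsf10b and Fas the 95% interval of the fold change lay within 1.5-fold in either direction.

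The estimated counts summed to between 17192372 and 20973623 per library. The neutrophil markers fixed for the check (Ly6g, S100a8, S100a9, Csf3r, Cxcr2, Mmp9, Retnlg and Mmp8) were all detected and held 36.6% to 37.1% of all TPM in the Ly6C-high and 33.7% to 35.4% in the Ly6C-low libraries, ranges that did not overlap. S100a9 made up 53.1% of that sum, and without it the ranges overlapped. TPM is the length-scaled abundance that the authors deposited. Ly6C-low replicate 3 stood apart, at 38.0 on the first principal component of log2 counts, where the other 5 libraries lay between -19.7 and 3.91. Genes were compared between groups in counts relative to the library total (CPM) scaled by TMM, a scaling that sets most genes level between libraries, and genes were compared with each other in TPM. The scales differ: without TMM the median over all genes of the log2 fold change moved from 0.00 to -0.11, and the TPM values, which are not TMM-scaled, are likewise relative to each library's own total.

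The sequences upstream of Tnf and Tnfsf14 are shown because the values of these ligand genes lay on opposite sides, although neither passed the test. Both lie on chromosome 17, on the minus strand. Printed are the 250 bases before the RefSeq start site on GRCm38.p6, read 5′ to 3′ along the gene, at chr17:35202008-35202257 for Tnf and chr17:57194182-57194431 for Tnfsf14. Neither stretch overlaps an annotated exon. Capitals mark matches to the searched motifs.
Tnf: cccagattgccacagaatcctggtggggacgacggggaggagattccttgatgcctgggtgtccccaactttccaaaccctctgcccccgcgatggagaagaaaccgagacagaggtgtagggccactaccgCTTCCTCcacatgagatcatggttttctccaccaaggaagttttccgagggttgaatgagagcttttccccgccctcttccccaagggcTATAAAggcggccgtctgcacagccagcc
Tnfsf14: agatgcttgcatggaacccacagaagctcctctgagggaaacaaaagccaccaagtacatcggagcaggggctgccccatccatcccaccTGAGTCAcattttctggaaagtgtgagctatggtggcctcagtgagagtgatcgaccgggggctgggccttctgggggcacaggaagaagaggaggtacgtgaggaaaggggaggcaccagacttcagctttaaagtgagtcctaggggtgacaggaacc

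The motifs were searched on both strands in 32851 such windows of all genes, and the matches describe letters only. The Tnf window holds a TATA box (TATAAA), whose first base lies 29 bases before the start, and a PU.1 word (GAGGAAG, here as its reverse complement) 118 bases before it, which 12.4% and 10.6% of all windows hold. The Tnfsf14 window holds an AP-1 word (TGANTCA) 160 bases before the start, as do 6.75% of all windows. Windows were given for 7 of the 9 genes, 8 in all. The AP-1 word was also in that of Fas and in the downstream window of Tnfsf13b (chr8:10006383-10006632). The GAS word (TTCNNNGAA, in 7.02% of all windows) was in those of Fas, Tnfrsf1a and Tnfrsf1b. The word of the interferon-stimulated response element (GAAANNGAA, in 7.13%) was in that of Tnfrsf1b and in the same downstream window of Tnfsf13b. This Tnfsf13b window overlaps an annotated exon of the gene by 166 bases, and the Tnfrsf1a window overlaps one by 36 bases. The upstream window of Tnfsf13b holds none of the words. The PU.1 word was also in that of Tnfrsf1b. The NF-kB word GGANTTTCC, in 1.07% of all windows, was in 0 of the 8.

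Tnf mRNA is known to be unstable because of AU-rich words in the part after its stop codon, which proteins such as tristetraprolin bind. The 30 bases with the most such words in the reference transcript Tnf-201 (GENCODE M21, bases 437 to 466 after the stop codon) are shown with every ATTTA in capitals.
Tnf: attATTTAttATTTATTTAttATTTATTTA

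They hold 5 copies of ATTTA, counting overlaps, and 4 of the longer word TTATTTATT. After the stop codon Tnf-201 holds 5 copies of the longer word in 764 bases. Of the 10771 tested genes with such a stretch 8.60% hold the longer word at least once, and 20 hold it as often as Tnf. Among the other members Tnfrsf10b and Tnfsf13b hold 1 copy each and the remaining 6 hold 0.

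The levels of the 9 genes spanned from 0.0353 to 298.3 TPM and fell into steps. Tnfrsf1a, which encodes TNF receptor 1, was the highest, at 236.5 to 298.3 TPM over the 6 libraries, above 96.7% of tested genes. Tnfsf14, which encodes LIGHT, followed at 114.6 to 144.3 TPM, Tnfrsf1b (TNF receptor 2) at 80.1 to 100.7 TPM and Fas, the death receptor CD95, at 38.9 to 50.7 TPM. The ranges of these 4 neighbours did not overlap. Tnfsf13b (B cell activating factor, BAFF) at 6.63 to 8.97 TPM, Tnfrsf10b (a mouse TRAIL receptor) at 5.12 to 7.37 TPM and Tnf at 3.59 to 7.31 TPM overlapped with their neighbours in this order, and their order is not settled. Tnfsf9 (4-1BB ligand) at 0.051 to 0.396 TPM and Tnfsf10 (TRAIL) at 0.0353 to 0.0977 TPM lay below all others and overlapped each other.

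**Figure D1:**
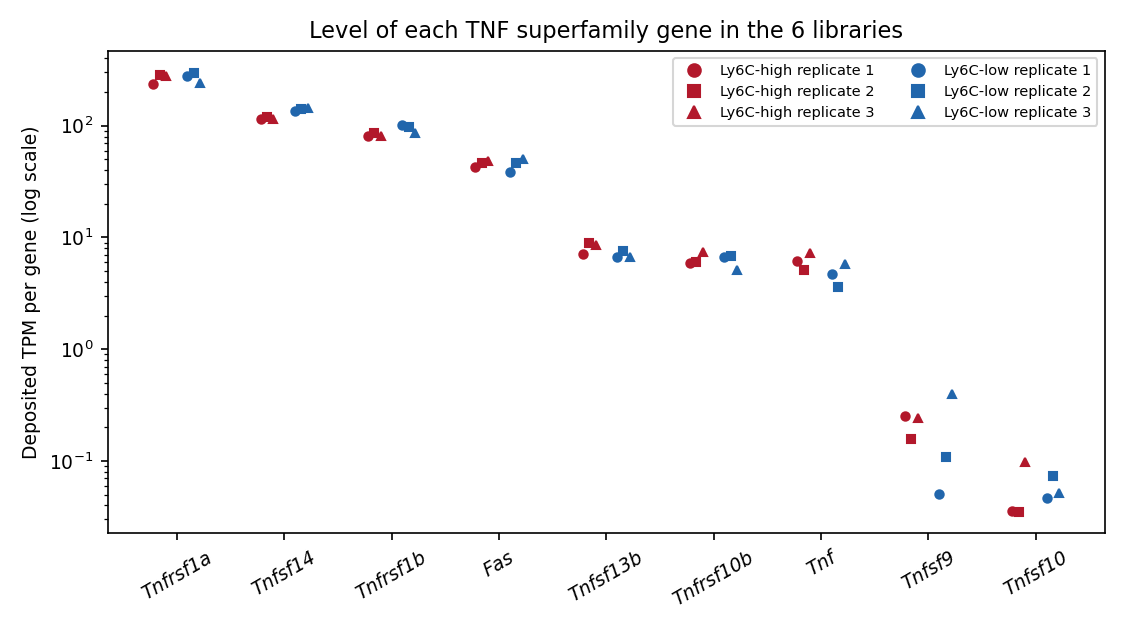
Deposited TPM per gene on a log axis for the 9 genes, ordered by mean, with 1 point per library (red for Ly6C-high, blue for Ly6C-low, marker shape for the replicate number). Tnfrsf1a, Tnfsf14, Tnfrsf1b and Fas form separate steps, Tnfsf13b, Tnfrsf10b and Tnf share a level near 6 TPM, and Tnfsf9 and Tnfsf10 lie below 0.4 TPM.

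Tnf, the founding ligand of the family, measured 8.51, 6.99 and 9.89 CPM in Ly6C-high replicates 1, 2 and 3, from 161, 131 and 202 estimated counts. In Ly6C-low replicates 1, 2 and 3 it measured 6.14, 4.61 and 7.21 CPM, from 123, 88 and 136 counts. The groups overlapped, since Ly6C-low replicate 3 lay above Ly6C-high replicate 2. The mean was 8.46 ± 1.45 against 5.99 ± 1.31 CPM (SD, n = 3 each), and the log2 fold change of Ly6C-high over Ly6C-low was 0.50, with a standard error (SE) of 0.20. Tnf did not pass edgeR's quasi-likelihood test (unadjusted p 0.0258, Benjamini-Hochberg adjusted p 0.294), and its 95% interval ran from 1.05-fold to 1.90-fold.

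Tnfsf13b, a survival factor for B cells that myeloid cells also make, measured 9.47, 12.4 and 11.8 CPM in Ly6C-high replicates 1, 2 and 3. It measured 8.64, 9.59 and 6.89 CPM in the Ly6C-low replicates, and the groups overlapped only in that Ly6C-high replicate 1 lay just below Ly6C-low replicate 2. The log2 fold change was 0.42 (SE 0.16, unadjusted p 0.0254 and adjusted p 0.293 by edgeR). The level rests on 130 to 240 estimated counts, of which only a minority were assigned to coding transcripts. That share was 41.4%, 24.0% and 24.9% in the Ly6C-high and 19.3%, 20.8% and 31.9% in the Ly6C-low replicates. The largest share, 30.7% to 52.7%, was assigned to Tnfsf13b-205, a transcript annotated for nonsense-mediated decay. Reads that several transcripts share make this division an estimate. For comparison, the coding share lay between 94.7% and 100% for Fas, Tnf, Tnfrsf1a, Tnfrsf1b, Tnfsf14, Tnfsf9 and Tnfsf10 and between 81.0% and 90.9% for Tnfrsf10b.

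Tnfsf14, whose product LIGHT binds the receptors encoded by Tnfrsf14 and Ltbr, measured 182.6, 185.3 and 178.5 CPM in Ly6C-high replicates 1, 2 and 3. It measured 203.5, 209.3 and 206.8 CPM in the Ly6C-low replicates. All 3 Ly6C-low libraries lay above all 3 Ly6C-high libraries, with a small spread within each group (182.1 ± 3.45 against 206.5 ± 2.96 CPM, SD, n = 3 each). The difference was small as well, at a log2 fold change of -0.18 (SE 0.08, unadjusted p 0.0457 and adjusted p 0.343 by edgeR). Tnfsf14 was the only 1 of the 7 members tested whose groups did not overlap in CPM, where 21.1% of all tested genes had groups that did not overlap.

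Tnfsf9 and Tnfsf10 did not pass the filter on low counts and were not tested. Tnfsf9 had 5, 3 and 5 estimated counts in the Ly6C-high and 1, 2 and 7 in the Ly6C-low replicates, and Tnfsf10 had 3, 3 and 9 against 4, 6 and 4. Both genes overlapped between the groups.

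Tnfrsf1a, the widely expressed receptor with a death domain, measured 431.7, 501.0 and 463.4 CPM in Ly6C-high replicates 1, 2 and 3 and 465.9, 492.1 and 374.0 CPM in the Ly6C-low replicates. The groups overlapped throughout, with Ly6C-low replicate 3 the lowest of the 6. The log2 fold change was 0.07 (SE 0.12, edgeR adjusted p 0.830), and its interval ran from 0.879-fold to 1.25-fold. It was -0.040 without Ly6C-low replicate 3 and -0.033 without TMM, so no direction can be given.

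Tnfrsf1b, the TNF receptor without a death domain, measured 283.0, 295.0 and 279.3 CPM in Ly6C-high replicates 1, 2 and 3 and 335.8, 319.9 and 276.4 CPM in the Ly6C-low replicates. Ly6C-low replicates 1 and 2 were the highest and Ly6C-low replicate 3 the lowest. The log2 fold change was -0.12 (SE 0.10, edgeR adjusted p 0.608). On the TPM scale, which lacks TMM, the 3 Ly6C-low libraries all lay above the Ly6C-high ones, at 86.7 to 100.7 against 80.1 to 85.4 TPM.

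The balance of the TNF receptors within a library does not depend on scaling between libraries. The ratio of Tnfrsf1b to Tnfrsf1a TPM was 0.339, 0.297 and 0.291 in Ly6C-high replicates 1, 2 and 3 and 0.365, 0.327 and 0.356 in the Ly6C-low replicates. Thus Tnfrsf1a exceeded Tnfrsf1b in all 6 libraries, and the groups overlapped only through Ly6C-high replicate 1. The mean ratio was 0.309 ± 0.0259 against 0.349 ± 0.0202 (SD), and an exact permutation test of the log2 ratio (two-sided) gave p = 0.2, where 3 against 3 libraries cannot go below 0.1.

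Fas measured 50.2, 53.0 and 55.8 CPM in Ly6C-high replicates 1, 2 and 3 and 44.2, 50.2 and 54.0 CPM in the Ly6C-low replicates. The groups overlapped, and the log2 fold change was 0.10 (SE 0.10, edgeR adjusted p 0.685, interval from 0.921-fold to 1.25-fold). It was -0.011 without TMM. Tnfrsf10b, which binds TRAIL, measured 16.2, 15.7 and 17.7 CPM in the Ly6C-high and 15.8, 16.0 and 11.3 CPM in the Ly6C-low replicates. Only Ly6C-low replicate 3 was clearly lower than the rest, and the log2 fold change of 0.21 (standard error 0.14, adjusted p 0.556 by edgeR) was 0.062 without it.

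**Figure D2:**
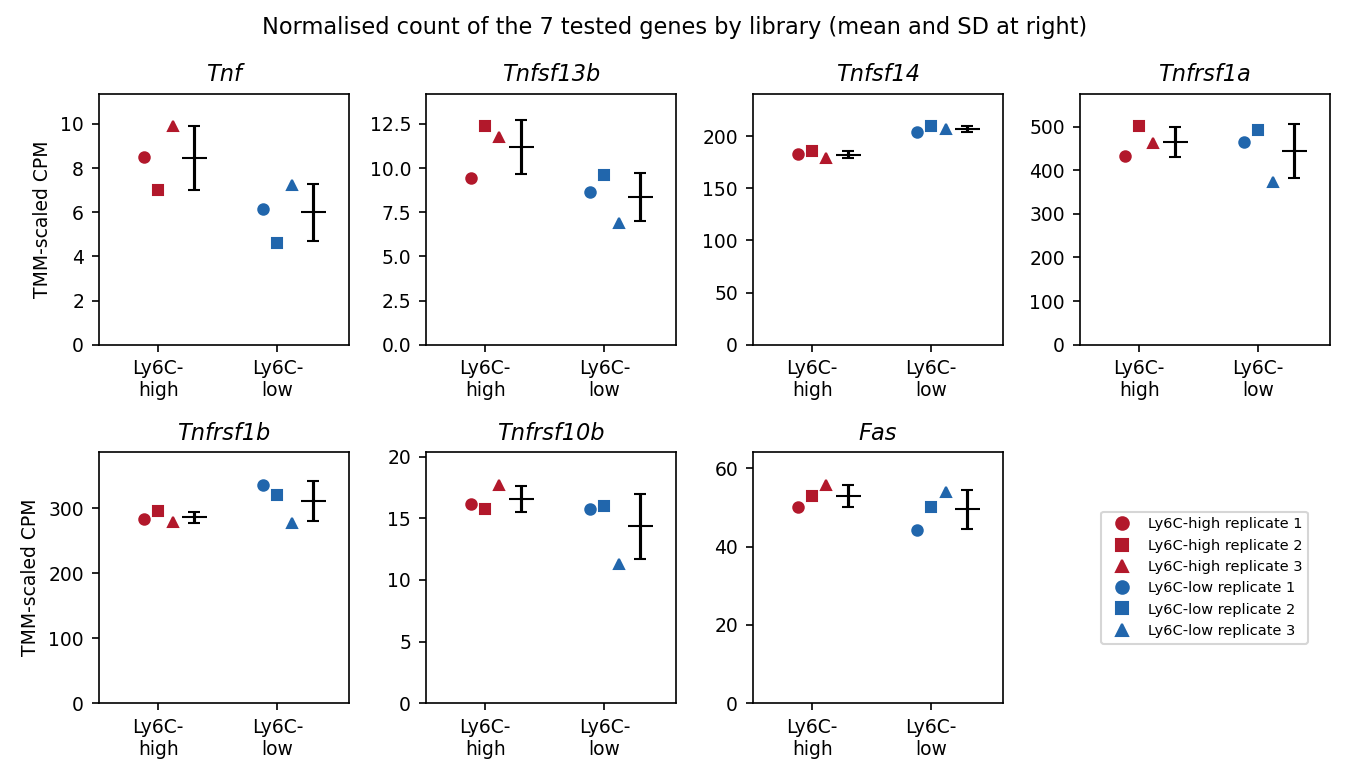
TMM-scaled CPM of the 7 tested genes in each library, from 0, with marker shape for the replicate number and the group mean and SD at the right of each group. Only the Tnfsf14 panel shows groups that do not overlap, and Tnfrsf1a and Tnfrsf10b have their lowest point in Ly6C-low replicate 3.

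Of the 7 members tested, 0 passed an adjusted p of 0.05 with edgeR, and 0 passed with DESeq2 or limma voom. Of all 11406 genes tested with edgeR 4 passed, which is 0.0351%. At an unadjusted p under 0.05, 2 members were higher in the Ly6C-high cells (Tnf and Tnfsf13b), where 6.92% of all genes were, and 1 was lower (Tnfsf14), where 7.34% of all genes were. The members' median log2 fold change was 0.10, beside 0.00 over all genes tested. Tnf ranked 1000th, Tnfsf13b 986th and Tnfsf14 1521st by p.

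Marker transcripts of some other cells lay apart between the groups and are given beside Tnf, Tnfsf13b and Tnfsf14, which had an unadjusted p under 0.05. The monocyte and macrophage markers summed to 102 to 106 TPM in the Ly6C-high and 113 to 130 TPM in the Ly6C-low libraries. Csf1r made up 95.2% of that sum. Without it the direction was opposite, at 5.82 to 7.45 TPM in the Ly6C-high and 3.32 to 4.86 TPM in the Ly6C-low libraries. Of the rest, Ccr2 had the highest mean, at 3.19 TPM, followed by Ms4a6c at 0.894 TPM. F13a1, Adgre4, Ly86 and Mrc1 overlapped between the groups. Of the 10 markers 8 were detected, C1qa and C1qb were at 0 in all libraries, and Csf1r itself was higher in the Ly6C-low libraries (110 to 125 against 95.2 to 98.9 TPM). The group means of Tnf and Tnfsf13b were on the same side as the list without Csf1r and opposite to its whole sum. Ly6C-low replicate 3 was the lowest of the 6 for the list without Csf1r and for Tnfsf13b. For Tnf it lay above Ly6C-high replicate 2. For Tnfsf13b, unlike the list without Csf1r, Ly6C-high replicate 1 lay below Ly6C-low replicate 2. The 8 eosinophil markers, of which Prg3 was at 0 and Siglecf held 64.1% of the TPM, summed to 18.9 to 23.4 against 35.7 to 37.7 TPM. The 8 basophil and mast cell markers, all detected, summed to 3.21 to 5.58 against 7.99 to 36.9 TPM, the highest in Ly6C-low replicate 3. The mean of Tnfsf14 was on the same side as these lists. The part of other cells in any of these results was not tested, and in sorted bulk RNA fewer cells of a type and less RNA per cell cannot be told apart.

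Of the other lists of blood cell markers, T cell genes summed to 29.9 to 48.1 against 26.2 to 38.0 TPM, of which Cd3d held 92.1%. NK cell genes summed to 1.88 to 3.62 against 0.753 to 1.91 TPM, B and plasma cell genes to 8.37 to 11.2 against 8.29 to 11.9 TPM, and dendritic cell genes to 2.71 to 4.28 against 3.22 to 3.82 TPM. Platelet genes summed to 9.30 to 22.4 against 10.7 to 27.7 TPM and erythroid genes to 685.4 to 2422 against 1729 to 2505 TPM. The ranges of these 6 lists overlapped between the groups.

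Beyond the 9 genes, 37 further ligands and receptors of the family were looked up, and most were not expressed at a level that could be compared. Of these, 7 were at 0 in all 6 libraries, 20 had a mean above 0 and under 1 TPM, and 15 were tested. The ligand gene Ltb, which encodes lymphotoxin beta, stood out at 166.8 to 192.9 TPM. Ltb and Tnfsf14 together held 94.7% to 96.4% of the TPM of all 18 ligand genes. Among the other receptors Relt, a receptor of lymphoid and myeloid tissue, had the highest level at 64.0 to 86.5 TPM. Ltbr, the lymphotoxin beta receptor, followed at 35.8 to 55.2 TPM. None of these 3 passed the test, with log2 fold changes of 0.03 for Ltb, -0.09 for Relt and -0.06 for Ltbr. Without TMM these values were -0.07, -0.20 and -0.17, and from length-scaled TPM they were 0.03, -0.16 and -0.22. In TPM the Ly6C-low libraries of Relt and Ltbr all lay above the Ly6C-high ones.

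Receptors and ligands of the same pair were often unequal in level. Fas was measured at 38.9 to 50.7 TPM while its ligand gene Fasl had 0 to 4 counts per library. Tnfrsf10b lay above 5 TPM where its ligand Tnfsf10 stayed under 0.1 TPM. Of the BAFF receptors, Tnfrsf13b (TACI) was present at 10.9 to 18.9 TPM, Tnfrsf13c (BAFF receptor) stayed at or under 0.305 TPM and Tnfrsf17 was at 0. The receptor of 4-1BB ligand, Tnfrsf9, had 1 count in 1 of the 6 libraries.

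Tnfrsf14, which encodes the LIGHT receptor HVEM, was the other superfamily gene with the smallest p. It measured 14.5, 17.5 and 14.2 CPM in Ly6C-high replicates 1, 2 and 3 and 13.5, 10.6 and 11.2 CPM in the Ly6C-low replicates. The groups did not overlap, with the Ly6C-high libraries above, opposite to the direction of its ligand gene Tnfsf14. Its log2 fold change was 0.39 (SE 0.14, edgeR unadjusted p 0.0165, adjusted p 0.261). Tnfrsf13b measured 30.04, 19.57 and 21.15 against 20.71, 15.40 and 17.24 CPM, in groups that overlapped, with a log2 fold change of 0.41 (edgeR unadjusted p 0.0401, adjusted p 0.329), which was 0.19 without Ly6C-high replicate 1. Tnfrsf26, another receptor gene of the mouse family, had a log2 fold change of -0.20, and of -0.069 without Ly6C-low replicate 3. Of the 15 tested, 0 passed with edgeR, DESeq2 or voom. DESeq2 gave no adjusted p for Cd27, Cd40, Tnfrsf4, Tnfrsf11a, Tnfrsf12a, Tnfrsf18 and Tnfrsf22, which therefore could not pass it. At an unadjusted p under 0.05 by edgeR 2 of the 15 were higher and 0 lower, where 6.92% and 7.34% of all genes were. The median of the 15 was 0.00.

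**Figure D3:**
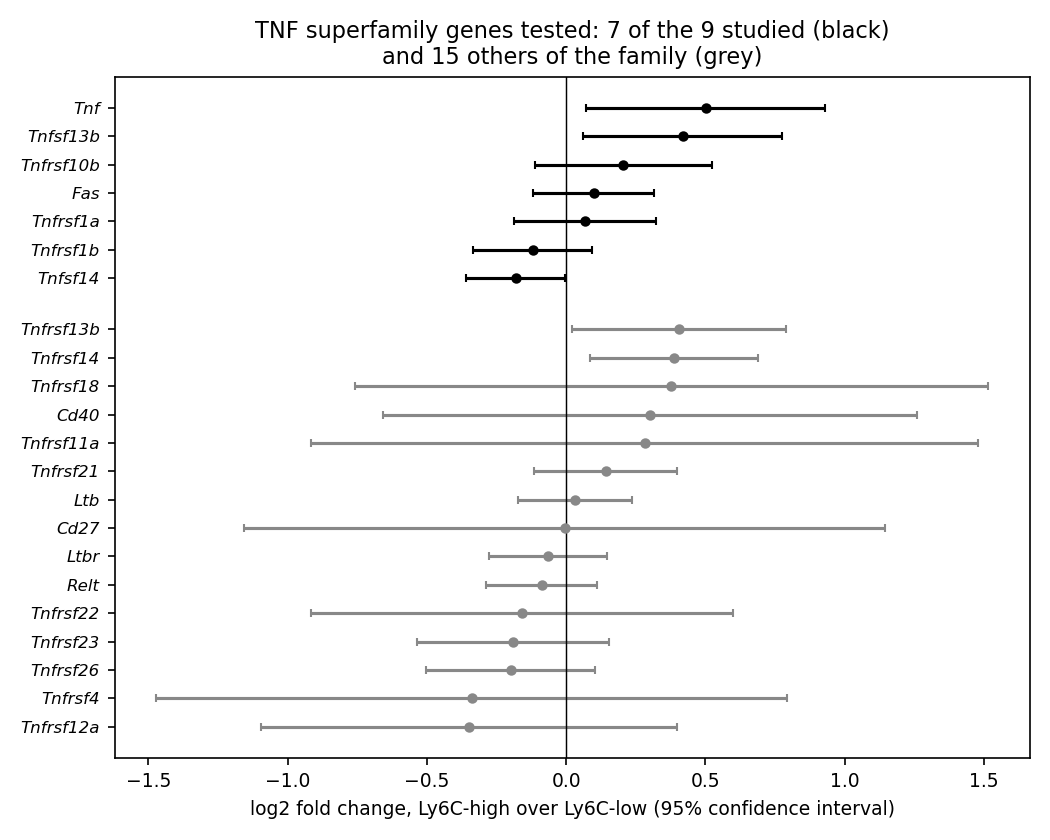
Log2 fold change of Ly6C-high over Ly6C-low with its 95% confidence interval for the 7 tested genes (black) and the 15 other tested genes of the family (grey). The intervals of Tnf, Tnfsf13b, Tnfrsf13b and Tnfrsf14 lie above 0 and that of Tnfsf14 below 0, before adjustment for the number of genes.

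The genes through which the receptors signal were detected in both groups, and 0 of them passed over all genes tested with edgeR, DESeq2 or voom. Of these, Traf1, Fadd and Mlkl had low mean levels of 0.772, 0.337 and 0.307 TPM, and Mlkl was not tested. DESeq2 gave an adjusted p for only 6762 genes. All 28 adaptors, ubiquitin ligases and kinases next to the receptors were tested, with a median log2 fold change of 0.01. At an unadjusted p under 0.05, 4 had higher and 1 had lower CPM in Ly6C-high cells, where 6.92% and 7.34% of all genes did. Map3k7, the kinase TAK1, had a log2 fold change of 0.22, Traf3, an inhibitory adaptor of the non-canonical NF-kB pathway, 0.27, and Ikbkg, the regulatory subunit NEMO of the IkB kinase, 0.22. In these 3 the Ly6C-high libraries lay above the Ly6C-low libraries in CPM. Over the list the groups did not overlap in 4 genes with the Ly6C-high and 2 with the Ly6C-low libraries above, where 21.1% of all tested genes had groups that did not overlap. The genes of highest level in the list were Birc3, the ubiquitin ligase cIAP2, at 136.0 to 186.4 TPM, Tab2 at 86.4 to 113.5 TPM and Map3k5 (ASK1) at 35.3 to 47.2 TPM, with log2 fold changes of 0.04, 0.02 and 0.07.

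Death signalling genes had a median log2 fold change of 0.07 over 11 of 12 tested. Cflar, which encodes c-FLIP, the inhibitor of caspase-8 at death receptors, measured 137.2, 161.4 and 158.0 CPM in Ly6C-high replicates 1, 2 and 3 and 120.7, 122.4 and 123.0 CPM in the Ly6C-low replicates. The groups did not overlap, and the log2 fold change was 0.32 (SE 0.09, edgeR unadjusted p 0.00444, adjusted p 0.201). It was the only gene of the list with an unadjusted p under 0.05, where 6.92% of all genes were higher and 7.34% lower. Over the list 1 gene had the Ly6C-high libraries above without overlap and 1 the Ly6C-low libraries. Of all tested genes 21.1% had groups that did not overlap. Casp8, the initiator caspase, and Bid, which it cleaves, had log2 fold changes of 0.20 and 0.18.

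Of the 8 genes for shedding 6 were tested, with a median log2 fold change of 0.11. At an unadjusted p under 0.05, 0 were higher or lower, where 6.92% and 7.34% of all genes were. Adam17, the protease that releases soluble TNF and its receptors, was present at 55.2 to 71.9 TPM with a log2 fold change of 0.18. The values were 0.10 for Adam10, 0.19 for Sppl2a, a protease that cuts the remaining membrane stub of TNF, and 0.12 for Rhbdf2, the partner that brings ADAM17 to the cell surface.

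Of the 10 genes for proteins that act on AU-rich or stem-loop elements all were tested, with a median log2 fold change of -0.10. Khsrp, a decay-promoting RNA-binding protein, measured 55.2, 56.2 and 52.1 CPM in Ly6C-high replicates 1, 2 and 3 and 68.4, 66.6 and 64.5 CPM in the Ly6C-low replicates. These groups did not overlap, and the log2 fold change was -0.29 (SE 0.08, edgeR unadjusted p 0.00558, adjusted p 0.213). Zfp36, which encodes tristetraprolin, was abundant and varied more between libraries of a group than between groups, at 1004, 1500 and 1710 against 1233, 1821 and 2011 CPM. Its log2 fold change was -0.27 (SE 0.24). It rose from replicate 1 to replicate 3 in both groups, and at each replicate number the Ly6C-low library was the higher. Its relatives Zfp36l1 and Zfp36l2 had values of 0.00 and -0.13, and Rc3h2, which binds stem loops, had 0.23.

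Of 28 early target genes of TNF and NF-kB 24 were tested, with a median log2 fold change of -0.03 and 12 values on each side of 0. At an unadjusted p under 0.05, 0 had higher and 2 had lower CPM in Ly6C-high cells, a count near the 7.34% of all genes that were lower. Icam1, an adhesion molecule, measured 8.46, 10.7 and 9.30 CPM in Ly6C-high replicates 1, 2 and 3 against 12.08, 12.05 and 16.49 CPM. The chemokine gene Ccl3 measured 1.59 to 1.71 CPM in the Ly6C-high libraries against 1.95, 2.67 and 5.83 CPM, with Ly6C-low replicate 3 far above the rest. In both genes the Ly6C-low libraries lay above the Ly6C-high ones, with log2 fold changes of -0.51 and -1.09 (adjusted p 0.221 and 0.264 by edgeR). Ptgs2, the inducible cyclooxygenase, had a value of 0.37. The most abundant targets overlapped between the groups, with -0.12 for Il1b, -0.25 for Dusp1 and -0.19 for Junb. In each of these the Ly6C-low library was the higher at every replicate number, as for Zfp36.

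**Figure D4:**
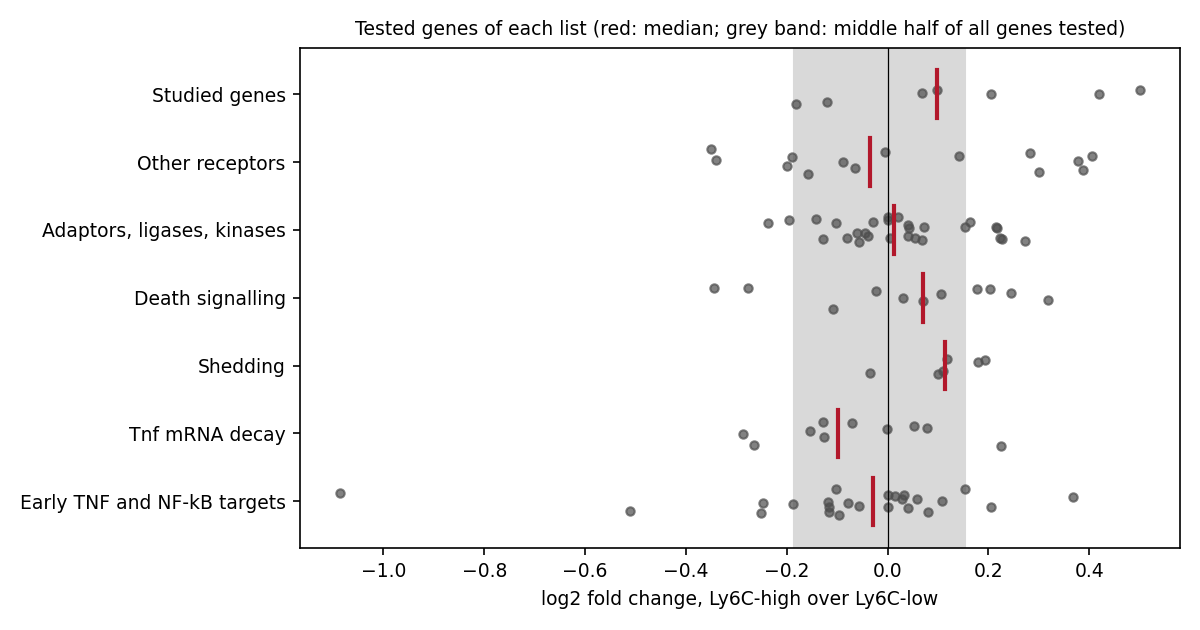
Log2 fold change of Ly6C-high over Ly6C-low for every tested gene of the studied set, the other receptors and the 5 pathway lists, with the list median in red and the range from -0.18 to 0.15 that holds the central 2 quartiles of all tested genes in grey. The medians of the 7 lists lie between -0.10 and 0.11, and Ccl3 is the point below -1.

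The 7 tested members did not vary together over the 6 libraries. Of their 21 pairs 10 had a Pearson correlation above 0 in log2 CPM, with a median of -0.03. Tnfsf13b, Tnfrsf10b and Tnfrsf1a correlated at 0.79 to 0.81 with each other, and the lowest value was -0.85 for Tnfrsf1b and Fas, followed by -0.82 for Tnf and Tnfsf14. These are descriptions over 6 libraries that share the group difference and 1 library that stands apart.

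Among 7075 protein-coding genes of at least 5 CPM, the genes most like each member over the 6 libraries were picked by Pearson correlation in log2 CPM. They were Rbms1 and Zfand2b for Tnf (0.98 and 0.97), Dgat1 and Mtmr14 for Tnfsf13b (0.998 and 0.995), and Cbfa2t2 and Scaf4 for Tnfsf14 (both 0.99). They were Tnfaip8l2 for Tnfrsf1a (0.998), Nhlrc3 and Tbc1d9b for Tnfrsf1b (0.996 and 0.991), Zfp51 and Mpzl3 for Tnfrsf10b (both 0.99) and Mia2 and Chrm3 for Fas (both 0.98). Between 5 and 83 genes exceeded 0.95 for each member. The named genes were picked for their high values among 7075 over only 6 libraries. Whether more genes exceeded 0.95 than unrelated genes would was not tested.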

How the data were processed

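Per the submitters' processing notes, the authors used kallisto and the genome build GRCm39, with version, index and strand setting not given in the sources used here. Per the file headers, each of the 6 deposited tables gives estimated counts and TPM for 117486 transcripts. Transcripts were summed to genes by identifier without version with GENCODE M21 (build GRCm38, used for names, exon positions and sequences), which matched 99.0% of them and at least 99.7% of the estimated counts. Summed counts were rounded. The libraries of a pair differed by far more than sampling noise (chi-square per gene of 14.3 or more), so none was counted as a copy.

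The test was edgeR 4.0.16 in R 4.3.3 (filterByExpr, TMM, robust quasi-likelihood F test, group as the only term, Benjamini-Hochberg adjustment over all genes kept, threshold 0.05), after it had been tested on simulated counts. Ly6C-low is the reference of each fold change, and SDs are over 3 libraries. The common biological coefficient of variation was 13.7%. Ratios were compared with the exact permutation test of scipy 1.17.1. Alternatives were a replicate block, DESeq2 1.42.0 size factors or Wald test, library size alone, limma 3.58.1 voom, no filter or a mean count of 10, length-scaled TPM, and each library left out. The genes and lists were chosen with earlier results of these data known. All 9 members are named. From the rest of the family and each pathway list the 3 tested genes with the smallest p and the 3 with the highest mean TPM are named, and for each tested member the 2 genes most like it; 2 genes that this rule picks are not reported here. Fasl, Tnfrsf13c, Tnfrsf17 and Tnfrsf9 are named as the partners of members, after their values were seen. Traf1, Fadd and Mlkl are named for their low levels, also after their values were seen. Promoter windows are RefSeq's on GRCm38.p6.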

Additional observations from a re-analysis of the deposited data

How the results depend on the processing

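Of the members, 0 passed the threshold in every one of the 14 alternatives, as did 0 of the other superfamily genes. DESeq2's Wald test gave no adjusted p for some of those other genes. Of 98 values for the 7 tested members 95 kept their direction. The exceptions were Tnfrsf1a, at -0.033 with library size alone and -0.040 without Ly6C-low replicate 3 (from -0.040 to 0.15 with 1 library left out), and Fas, at -0.011 with library size alone. Over the alternatives the log2 fold change ranged from 0.34 to 0.66 for Tnf (adjusted p 0.114 to 0.568), from 0.30 to 0.53 for Tnfsf13b (0.182 to 0.655) and from -0.29 to -0.17 for Tnfsf14 (0.136 to 0.641). The log2 ratio of Tnfrsf1b to Tnfrsf1a was -0.18, and between -0.25 and -0.14 with 1 library left out. Between same-numbered libraries its differences were -0.11, -0.14 and -0.29, all lower in Ly6C-high. An exact permutation test on these 3 differences gave p = 0.25, the lowest that 3 can give. The count of all genes called, 4 of 11406, was 8 of 11406 with library size alone and 2 of 11493 with length-scaled TPM. It was 439 of 20580 without the filter and 126 of 6762 with DESeq2's Wald test, and the cause was not tested. It lay between 2 and 22 with 1 library left out, at 22 without Ly6C-low replicate 3 and at 2 when the library omitted was replicate 2 of either group or replicate 3 of Ly6C-high. Pathway genes called numbered 0, and 2 without the filter (Ccl3 and Icam1). Tnfsf9 and Tnfsf10 were too low to be tested except without the filter, where their adjusted p were 0.902 and 1.00.

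With the replicate block 61 genes were called, 0 of them members, and the adjusted p was 0.114 for Tnf and 0.182 for Tnfsf13b. Deviations of same-numbered libraries from their group means correlated at 0.24, -0.04 and 0.24 for replicates 1, 2 and 3. Replicates 1 and 3 of each group correlated best with their own number, and replicate 2 did not. The labels state no pairing, so the block is given as an alternative only. At each replicate number Tnf, Tnfsf13b and Fas were higher, and Tnfsf14 lower, in the Ly6C-high library. How many of all genes kept their direction in this way was not counted. The unadjusted p with the block were 0.0056 for Tnf, 0.018 for Tnfsf13b, 0.054 for Tnfsf14 and 0.264 for Fas by edgeR. Tnf and Tnfsf13b rest on 88 to 240 counts per library, and Tnfsf9 and Tnfsf10 on under 10.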
